A study of Mus musculus with 8 samples.

Results

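The 10 genes described here make, convert or use nicotinamide adenine dinucleotide (NAD): Nmrk1, Nmrk2, Nampt, Nmnat1, Nmnat3, Nadk, Nadk2, Nnmt, Sirt1 and Sirt3. They were found by their symbols, and 10 of 10 were listed among the 23045 genes measured. The set was chosen because Nmrk2 was seen to be much higher in Mettl3 KO hearts in this same comparison, so the values of the 10 genes are given as a description. They were part of the fit over all genes, and the number of them past its threshold is given once beside that of all genes, with nothing drawn from it. All 10 genes reached the mean of at least 1 normalised read count that admitted 20313 genes to the test.

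The study compared total RNA of mouse heart between 4 libraries of Mettl3 lox/lox:αMHC-MerCreMer pos mice (Mettl3 KO) and 4 of Mettl3 lox/lox controls without the Cre transgene (WT). Mice of both genotypes were 10 to 16 weeks old and received intraperitoneal tamoxifen at 100 µg per g body weight on 7 consecutive days, so the lox alleles and the drug were common to both. METTL3 is the catalytic subunit of the enzyme that writes m6A onto RNA, and the comparison asks which transcripts differ in the heart once the gene is deleted in cardiomyocytes. The αMHC promoter drives the tamoxifen-dependent Cre in cardiomyocytes, so the other cells of the heart keep the gene, and Cre expression cannot be told apart from the deletion because the controls carried no transgene. The labels say neither which part of the heart was taken, nor the sex of the animals, nor whether hearts were pooled, nor whether each library is a separate animal.

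About 2631904 to 3061260 reads were counted to genes in each library, as recovered from the steps in the values. These are the reads left after the authors' filters, and the sequencing depth of the libraries is not known from them. A count of 3 reads was worth 2.78 to 3.33 normalised read counts. Mettl3 fell to 62.4% of the WT mean (limma adjusted p = 0.000184), and its values did not overlap between genotypes (105 to 133 in WT and 68 to 78 in Mettl3 KO). Transcripts counted for Esr1, part of which is fused to the Cre, were at 13 to 20 in WT and 693 to 851 in Mettl3 KO, and so were high in each library labelled as carrying the transgene. The 8 ventricular and general cardiomyocyte markers summed to 22651 to 23953 in WT and 21115 to 23784 in Mettl3 KO. Of these, Ryr2, the calcium release channel, fell without overlap, from a mean of 9885 to 8432 (log2 difference -0.23, limma adjusted p = 0.000137), and the other 7 had log2 differences of 0.00 to 0.10 and did not pass. Of the other markers, 7 of 8 fibroblast genes rose and their sum was 3648 to 4172 in WT against 4711 to 5671 in Mettl3 KO, whereas 4 of 8 endothelial genes fell, with a sum of 4794 to 5038 against 4169 to 4575. All 5 atrial genes rose, with sums of 192 to 432 in WT and 598 to 1392 in Mettl3 KO, and Bmp10, at 0 in every WT library, was also at 0 in Mettl3 KO 1 but at 195, 158 and 358 in Mettl3 KO 2, 3 and 4. In Mettl3 KO 1, Myl7 at 23, Myl4 at 113 and Sln at 10 also lay within their WT ranges of 0 to 26, 17 to 114 and 0 to 12, and only Nppa, at 452, lay above its WT range of 175 to 292. The part of these marker differences in the NAD results was not tested. The 7 macrophage markers summed to 1117 to 1327 in WT and 1148 to 1376 in Mettl3 KO, the 5 blood markers to 174 to 285 and 123 to 199, and none of these 12 genes passed the test in limma, with 3 of them at an unadjusted p under 0.05 and 0 called by limma voom.

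NAD carries electrons in energy metabolism and is consumed by sirtuins and ADP-ribosyltransferases, which release nicotinamide. Cells rebuild it mainly by salvage: NAMPT turns nicotinamide into nicotinamide mononucleotide (NMN), the nicotinamide riboside kinases NMRK1 and NMRK2 reach NMN from the riboside, and the NMNAT enzymes join NMN to ATP to give NAD. NAMPT is the main route in the adult heart, and Nmrk2, a muscle-enriched kinase, is known to be induced in failing hearts. NAD kinases then make NADP, and NNMT methylates nicotinamide and so removes it from the cycle.

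The sequence GGACT is a common form of the motif that METTL3 methylates, and it is shown for the 3 genes whose products form NMN. It was searched on the RNA strand of 1 coding transcript per gene (GENCODE M21, GRCm38), and each window below runs 5′ to 3′ with the motif in capitals and 8 bases on each side where the transcript reached that far. It occurred in 92.1% of the 14384 coding transcripts of tested genes, with a median of 1.05 matches per kb. A match is a run of letters and not a methylated site, because m6A was not measured here.
Nmrk2, chr10:81202038-81202051, 5′ untranslated region: gGGACTtgctgagc
Nmrk2, chr10:81200075-81200095, coding: cccctggtGGACTtgtacagc
Nmrk2, chr10:81199405-81199425, coding: ccccggagGGACTcttccatc
Nmrk2, chr10:81199194-81199214, 3′ untranslated region: attaaagtGGACTctgttttt
Nmrk2, chr10:81198504-81198524, 3′ untranslated region: acttgtgtGGACTtcataaaa
Nampt, chr12:32852953-32852973, 3′ untranslated region: cttagattGGACTagctctta
Nmrk1, chr19:18631976-18631996, 5′ untranslated region: agcgcagtGGACTtcgctgcc
The Nmrk2 windows lie on the minus strand and the others on the plus strand. Nmrk2 held 5 matches in 1854 bases, or 2.7 per kb, more than 96.4% of the transcripts. Nampt held 1 match in 4527 bases, or 0.221 per kb, more than 8.36% of them, and Nmrk1 held 1 in 1940 bases, or 0.515 per kb. Among the other members the density ran from 0.462 per kb in Nmnat3 to 2.9 per kb in Nmnat1, which had 4 matches.

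The nicotinamide riboside kinases were Nmrk2, which was high in every Mettl3 KO library, and Nmrk1, which hardly differed. Nmrk2 (ENSMUSG00000004939, chr10:81034004-81037885, minus strand, mm39) had normalised read counts of 4, 13, 7 and 10 in WT 1 to 4 and of 101, 98, 110 and 100 in Mettl3 KO 1 to 4. The genotypes did not overlap, and the lowest Mettl3 KO library lay far above the highest WT library. The means were 8.5 ± 3.87 in WT and 102.2 ± 5.32 in Mettl3 KO (SD, n = 4 each), a 12.03-fold ratio, and the difference on the log2(value + 1) scale was 3.54 (SE 0.24). WT 1 stood just above the value of 3 reads, and the WT SD was not far from the 2.92 that counting alone would give for a mean of 8.5, so the size of the ratio rests on few WT reads. With a pseudocount of 5 the log2 difference was 3.04. Mettl3 KO 1, in which Bmp10 was at 0, was at 101, inside the 98 to 110 of the other Mettl3 KO libraries. In tissue RNA, more RNA per cell and more cells of a type cannot be told apart.

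Nmrk1, the broadly expressed kinase (chr19:18609314-18629792), was at 41, 31, 38 and 34 in WT and at 37, 35, 25 and 33 in Mettl3 KO. The ranges overlapped, from 31 to 37. Its means were 36.0 ± 4.40 and 32.5 ± 5.26 (SD, n = 4), with a log2 difference of -0.15 (SE 0.17). Per kb of exon, Nmrk2 made up 16.3, 45.5, 26.8 and 36.9% of the sum of both kinases in WT 1 to 4, and 84.5, 84.8, 89.7 and 85.8% in Mettl3 KO 1 to 4. The riboside kinase transcript was thus mostly Nmrk1 in WT and mostly Nmrk2 in Mettl3 KO. The length was that of all annotated exons, 3689 bases for Nmrk1 and 1854 for Nmrk2. The coding transcript of Nmrk1 searched above had 1940 bases, and with that length every Nmrk2 share would be lower.

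Nampt, the enzyme that commits nicotinamide to salvage (chr12:32869544-32903348, plus strand), was the most abundant member per kb in both genotypes and was lower in Mettl3 KO. It was at 776, 709, 882 and 747 in WT and at 586, 554, 568 and 573 in Mettl3 KO. Every Mettl3 KO library lay below every WT library, and WT 3 was the highest of the 8. The means were 778.5 ± 74.25 and 570.2 ± 13.2 (SD, n = 4), so Mettl3 KO was at 73.2% of WT, with a log2 difference of -0.44 (SE 0.06). The Mettl3 KO libraries were closer together than the 23.9 that counting gives for their mean.

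**Figure D1:**
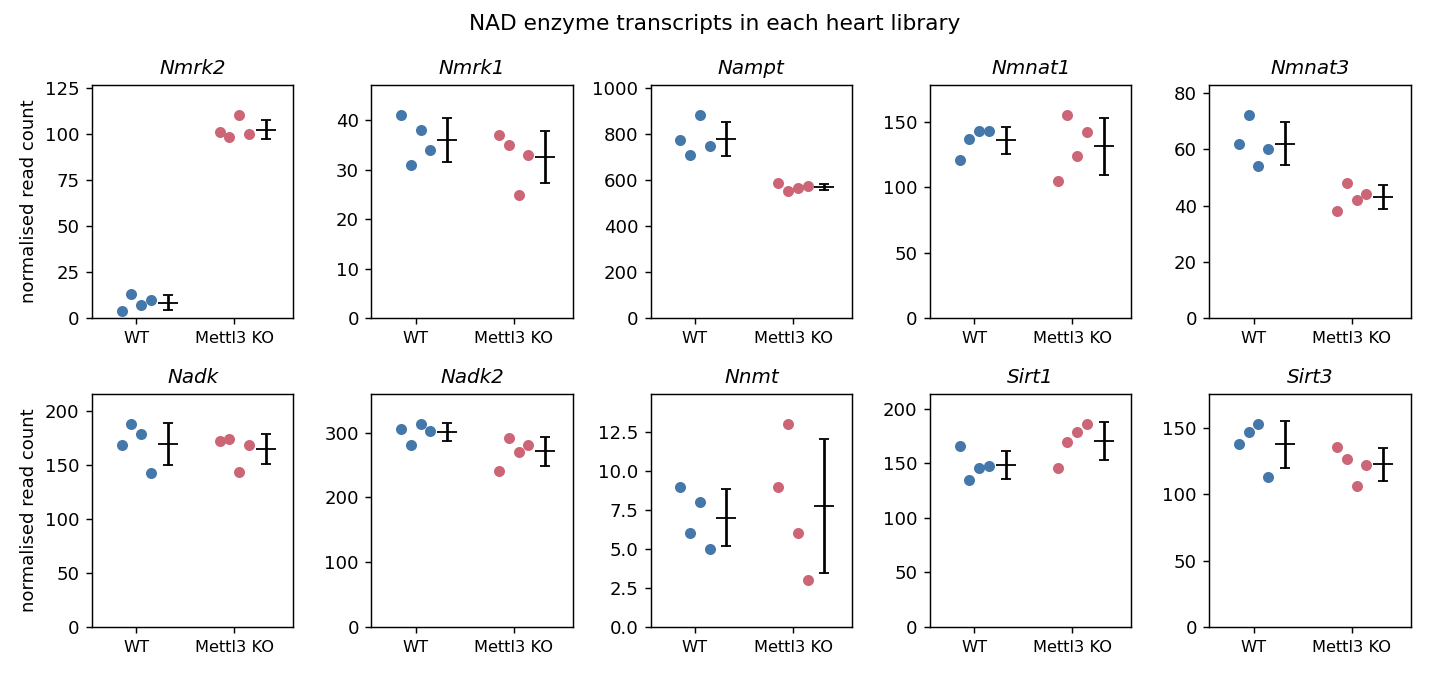
Normalised read count (y axis, each panel from 0) of the 10 NAD genes in the 4 WT (blue) and 4 Mettl3 KO (red) libraries. Points are libraries in the order 1 to 4 and the black mark is the mean ± SD. Nmrk2, Nampt and Nmnat3 are the 3 genes whose genotypes do not overlap.

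Taken per kb of exon, the 3 NMN-forming transcripts differed in make-up much more than in sum. Their sum was 167, 156, 189 and 162 per kb in WT and 180, 172, 178 and 176 per kb in Mettl3 KO. The ranges overlapped, with the WT range enclosing that of Mettl3 KO. The share of Nmrk2 in that sum was 1.29, 4.5, 2.0 and 3.32% in WT 1 to 4 but 30.2, 30.7, 33.2 and 30.6% in Mettl3 KO 1 to 4, and the share of Nampt was 90.1 to 92.5% in WT and 63.0 to 64.3% in Mettl3 KO. Nampt outnumbered Nmrk2 by 20.01 to 71.2 times in WT and by 1.89 to 2.13 times in Mettl3 KO. These are shares of transcript and rest on the same exon lengths, and neither enzyme amount nor NAD was measured here.

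**Figure D2:**
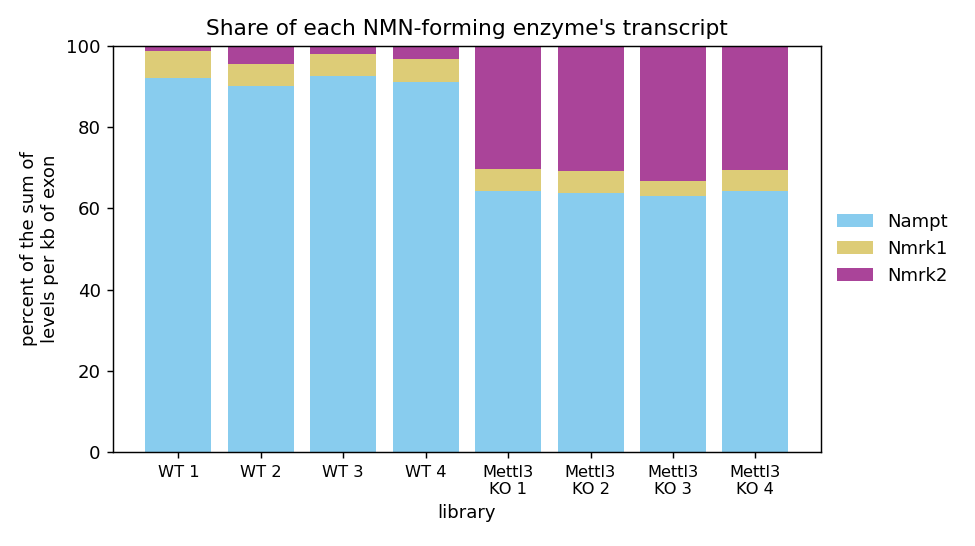
Percent (y axis) that Nampt, Nmrk1 and Nmrk2 make up of their summed level per kb of exon in each library (x axis). Nmrk2 takes 1.29 to 4.5% in the WT libraries and 30.2 to 33.2% in the Mettl3 KO libraries.

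Of the 2 NMNAT genes among the members, Nmnat3 was lower in Mettl3 KO and Nmnat1 overlapped between genotypes. The difference between these genes was not tested. Nmnat3, whose product is placed in mitochondria (chr9:98169488-98302491, plus strand), was at 62, 72, 54 and 60 in WT and at 38, 48, 42 and 44 in Mettl3 KO. The genotypes did not overlap, but the gap between the lowest WT and the highest Mettl3 KO library was small. The means were 62.0 ± 7.48 and 43.0 ± 4.16 (SD, n = 4), so Mettl3 KO was at 69.3% of WT, with a log2 difference of -0.52 (SE 0.13). The pseudogene Gm28530 lies within Nmnat3 on the same strand, with values of 1 to 5, and reads over both were left out by the authors' counting.

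Nmnat1, the nuclear enzyme (chr4:149552029-149569659, minus strand), was at 121, 137, 143 and 143 in WT and at 105, 155, 124 and 142 in Mettl3 KO. The Mettl3 KO range enclosed the WT range. The means were 136.0 ± 10.4 and 131.5 ± 21.8 (SD, n = 4), with a log2 difference of -0.06 (SE 0.10). Nmnat2, the third enzyme of this family and known mainly from neurons, was at 1 to 7 in WT and 2 to 4 in Mettl3 KO.

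The NAD kinases overlapped between genotypes. Nadk, the cytosolic enzyme (chr4:155646835-155675458), was at 169, 188, 179 and 143 in WT and at 172, 174, 144 and 169 in Mettl3 KO, with a log2 difference of -0.04 (SE 0.09). Nadk2, the mitochondrial enzyme (chr15:9071340-9110979), was at 306, 280, 313 and 303 in WT and at 241, 292, 270 and 280 in Mettl3 KO. Only WT 2 lay within the Mettl3 KO range, and the log2 difference was -0.15 (SE 0.07). Per kb of all annotated exons, Nadk2 was the second member in WT, at 58.7 ± 2.79, and Nadk the third, at 45.3 ± 5.19 (SD, n = 4).

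Nnmt, which spends nicotinamide by methylation (chr9:48503177-48516453), was scarce. It was at 9, 6, 8 and 5 in WT and at 9, 13, 6 and 3 in Mettl3 KO, with a log2 difference of 0.01 (SE 0.38). The libraries of both genotypes were mixed, and at a few reads per library a difference of the size seen for Nampt was not detectable.

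The sirtuins among the members are deacetylases that split NAD. Sirt1, found mainly in the nucleus (chr10:63154784-63217483), was at 166, 135, 146 and 148 in WT and at 146, 170, 179 and 186 in Mettl3 KO. Mettl3 KO 2, 3 and 4 exceeded every WT library and Mettl3 KO 1 did not, and the log2 difference was 0.19 (SE 0.09). With the mean log2 value of Myl7, Myl4, Sln and Bmp10 as a covariate, a setting chosen after the data had been seen, it was -0.01. Sirt3, the main mitochondrial deacetylase (chr7:140443579-140462222), was at 138, 147, 153 and 113 in WT and at 136, 127, 106 and 122 in Mettl3 KO. The ranges overlapped, with a log2 difference of -0.16 (SE 0.10), and of 0.04 with the same covariate. Sirt3 overlaps Ric8a and Psmd13 on the opposite strand, and the counting was by strand.

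Of the 10 members, 3 were called by limma at an adjusted p under 0.05, 1 higher and 2 lower in Mettl3 KO, beside 7.91% of all genes tested (4.72% higher and 3.19% lower). The same 3 did not overlap between genotypes, which held for 11.5% of all genes tested. Nothing is read from these counts, since the members were picked on this contrast. The count was 2 without WT 1, WT 2 or Mettl3 KO 3, and without the mean-variance trend, because Nmnat3 was no longer called. The other 7 members had log2 differences under 0.2 in size. The share of all genes tested under that size was not counted, so nothing is read from this number either. The median signed log2 difference over all genes tested was -0.01.

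The order of the members by level per kb of all annotated exons placed Nmrk2 the ninth of 10 in WT and the second in Mettl3 KO. In WT, Nampt led at 154.0 ± 14.7 per kb, clear of Nadk2, and Nadk at 45.3 and Nmnat1 at 44.8 had overlapping libraries. Sirt1 at 27.9 overlapped Sirt3 at 23.1, Nmnat3 at 12.4 overlapped Nmrk1 at 9.76, and Nmrk2 at 4.59 overlapped Nnmt at 4.44. In Mettl3 KO, Nampt led at 112.8 ± 2.62 and Nmrk2 followed at 55.2 ± 2.87 (SD, n = 4), which overlapped Nadk2 at 52.9 ± 4.26. At the lower end, Nmrk1 at 8.81 overlapped Nmnat3 at 8.59. The exon lengths came from GENCODE M21 and not from the annotation used for counting. Each covered all annotated exons of a gene. For Nmrk2 this equalled the coding transcript searched for GGACT, at 1854 bases. For Sirt3 it was 5973 bases against 1461, for Nmnat1 3037 against 1378 and for Nmnat3 5004 against 2166. Transcript lengths would thus raise such genes beside Nmrk2. The order depends on the lengths used, and no other lengths were tried.

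**Figure D3:**
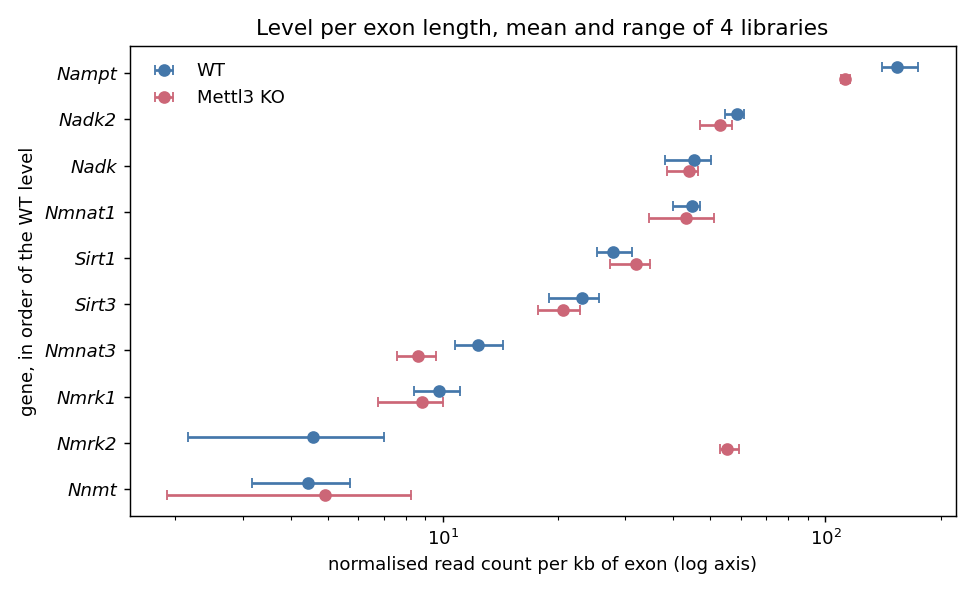
Normalised read count per kb of exon (x axis, log scale) of the 10 NAD genes, in the order of their WT level (y axis). Points are means and bars the range of 4 libraries, blue for WT and red for Mettl3 KO. Nmrk2 moves from 4.59 to 55.2 per kb, and no other member moves as far.

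The rest of the NAD pathway was followed in 10 further lists, 77 genes of which were tested. Of these, 4 rose and 6 fell in Mettl3 KO (limma adjusted p under 0.05), or 13%, beside 7.91% of all genes tested, and the median log2 difference was -0.01, equal to that of all genes. The lists were drawn up with earlier results of these data known. The count was 6 without WT 1 and 6 without WT 2, 5 with the atrial covariate, and 1 without the mean-variance trend.

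Among salvage and transport genes, Nt5c2 and Slc25a51 rose with non-overlapping values. Nt5c2, a cytosolic nucleotidase and the gene of its list with the highest mean count, was at 415, 420, 389 and 429 in WT and at 590, 539, 565 and 561 in Mettl3 KO. Its log2 difference was 0.45 (SE 0.05, limma adjusted p = 6.52e-06), and it passed in all 18 alternatives run. Slc25a51, which carries NAD into mitochondria, was at 371, 328, 364 and 336 in WT and at 524, 446, 462 and 455 in Mettl3 KO. Its log2 difference was 0.43 (SE 0.06, limma adjusted p = 7.97e-05), and it missed the threshold in 1 of 18 alternatives, at 0.0515 without the mean-variance trend. The other 5 tested synthesis and salvage genes, among them Nadsyn1 and Naprt, and the other 5 tested transporters did not pass.

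None of 4 tested genes of synthesis from tryptophan passed in limma, with 1 at an unadjusted p under 0.05 and 0 called by limma voom. All had values of 15 or lower. Afmid, with the highest mean count over the 8 libraries, had means of 9.0 ± 2.45 and 11.8 ± 2.99 (SD, n = 4), a log2 difference of 0.35 (SE 0.30, limma adjusted p = 0.574). Kmo, a kynurenine hydroxylase and the gene at an unadjusted p under 0.05, named after its values were seen, was at 7, 6, 6 and 9 in WT and at 14, 13, 14 and 9 in Mettl3 KO (log2 difference 0.75, SE 0.29, limma adjusted p = 0.126). Qprt, which feeds this route into the common pathway, was at 0 throughout WT and reached 2, 1, 2 and 0 in Mettl3 KO 1 to 4, too low to be tested. Kynu, also too low to be tested, went the other way, at 2, 1, 1 and 1 in WT. It was at 1, 0, 0 and 0 in Mettl3 KO. Both Qprt and Kynu were named after their values were seen.

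Among the enzymes that consume NAD, the glycohydrolases and the remaining sirtuins gave no calls. None of 3 glycohydrolases passed in limma, with 0 at an unadjusted p under 0.05 and 0 called by limma voom. Cd38, with the highest mean count of them, was at 87 to 94 in WT and 78 to 87 in Mettl3 KO, with a log2 difference of -0.13 (SE 0.10, limma adjusted p = 0.53). None of the 5 other sirtuins passed in limma, with 1 at an unadjusted p under 0.05 and 0 called by limma voom, and Sirt2, with the highest mean count, had a log2 difference of -0.10 (SE 0.08, limma adjusted p = 0.53). The gene at an unadjusted p under 0.05 was Sirt6, a nuclear sirtuin named after its values were seen, at 26 to 40 in WT and 21 to 25 in Mettl3 KO without overlap (log2 difference -0.48, SE 0.18, limma adjusted p = 0.121).

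Of the 18 genes of ADP-ribosylation, 1 rose and 3 fell, with a median log2 difference of -0.05. Tiparp, a mono-ADP-ribosyltransferase induced by the aryl hydrocarbon receptor, was at 139, 111, 157 and 111 in WT and at 174, 173, 193 and 171 in Mettl3 KO (log2 difference 0.47, SE 0.10, limma adjusted p = 0.00404). Parp1, the main DNA-damage polymerase of the family, was at 302, 315, 288 and 273 in WT and at 267, 235, 230 and 256 in Mettl3 KO (log2 difference -0.25, SE 0.07, limma adjusted p = 0.0213). Tnks2, a tankyrase, was at 756 to 778 in WT and 639 to 678 in Mettl3 KO (log2 difference -0.22, SE 0.04, limma adjusted p = 0.00202). These genes did not overlap between genotypes. Macrod1, which removes ADP-ribose, was at 275 to 311 in WT and 239 to 259 in Mettl3 KO (log2 difference -0.23, SE 0.06, limma adjusted p = 0.0264). Tnks, with the highest mean count of the list before any division by length, had a log2 difference of -0.15 (SE 0.05) with a limma adjusted p of 0.0642. The adjusted p of Parp1 was 0.0678 to 0.093 without WT 1, WT 2, Mettl3 KO 2 or Mettl3 KO 3, and that of Macrod1 0.0573 to 0.0935 without WT 1, WT 2, WT 4 or Mettl3 KO 4; over 18 alternatives these calls were lost in 6 and 7. Tiparp was at 0.124 and Tnks2 at 0.101 without the mean-variance trend, and Tnks2 at 0.088 with the atrial covariate, where its log2 difference was -0.20. Tnks passed in 4 of 18 alternatives, at 0.0382 with limma voom, 0.0418 and 0.0495 under the other scalings and 0.0473 without Mettl3 KO 4.

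Aox1, an oxidase that acts on methylated nicotinamide among other substrates, fell from 305.5 ± 38.4 to 248.2 ± 38.7 (SD, n = 4; log2 difference -0.30, SE 0.09, limma adjusted p = 0.0464). Its genotypes overlapped, and WT 3 at 363 stood above the other WT libraries at 283 to 290. Without WT 3 its limma adjusted p was 0.168, and without any other library except Mettl3 KO 2 it was 0.0601 to 0.176, and the call was lost in 12 of 18 alternatives. The other 4 genes of nicotinamide and NAD(P)H breakdown and repair did not pass.

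Among 9 genes of NADPH production, 1 rose and 2 fell. Mthfd2, a mitochondrial folate enzyme that is low in most adult tissues, was at 14, 22, 11 and 13 in WT and at 104, 51, 69 and 29 in Mettl3 KO. The genotypes did not overlap, and the Mettl3 KO libraries were widely spread. Its log2 difference was 1.91 (SE 0.28, limma adjusted p = 0.000107, and 0.0634 without the mean-variance trend), the widest in the 10 lists and well below the 3.54 of Nmrk2. Nnt, the mitochondrial transhydrogenase that links NADH and NADPH, was at 113, 117, 101 and 132 in WT and at 85, 104, 81 and 93 in Mettl3 KO (log2 difference -0.35, SE 0.10, limma adjusted p = 0.0424). Me1, cytosolic malic enzyme, was at 365, 325, 378 and 343 in WT and at 331, 264, 283 and 269 in Mettl3 KO (log2 difference -0.30, SE 0.07, limma adjusted p = 0.00977). Mettl3 KO 2 for Nnt and Mettl3 KO 1 for Me1 fell within the WT range. The adjusted p of Nnt was 0.0809 to 0.156 without WT 1, WT 2, WT 4, Mettl3 KO 1, Mettl3 KO 3 or Mettl3 KO 4, and that of Me1 was 0.0551 without Mettl3 KO 2; over 18 alternatives these calls were lost in 9 and 3. With the atrial covariate the log2 difference of Me1 was -0.08. Idh2, with the highest mean count of the list, differed by 0.02 (SE 0.05, limma adjusted p = 0.838).

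The 12 genes of cytosolic NADH reoxidation and its shuttles gave no call in limma, with 1 at an unadjusted p under 0.05 and 0 called by limma voom. Got1, with the highest mean count before any division by length, was at 795 to 867 in WT and 742 to 848 in Mettl3 KO, a log2 difference of -0.07 (SE 0.05, limma adjusted p = 0.433). The gene at an unadjusted p under 0.05 was Gpd2, the mitochondrial glycerol phosphate dehydrogenase, named after its values were seen, at 133 to 150 in WT and 102 to 138 in Mettl3 KO (log2 difference -0.27, SE 0.09, limma adjusted p = 0.082). AMP-activated kinase and PPARα are known to raise Nmrk2 transcription in cardiomyocytes, and the genes of the kinase's subunits, Ppara and Srf gave no call in limma either (0 of 9, with 2 at an unadjusted p under 0.05 and 0 called by limma voom). Prkaa2, with the highest mean count, was at 1137 to 1190 in WT and 1114 to 1237 in Mettl3 KO, a log2 difference of -0.01 (SE 0.04, limma adjusted p = 0.94). The genes at an unadjusted p under 0.05, named after their values were seen, were Prkab2, at 310 to 339 in WT and 343 to 382 in Mettl3 KO (log2 difference 0.14, SE 0.06, limma adjusted p = 0.18), and Srf, at 189 to 205 and 213 to 229 (log2 difference 0.15, SE 0.07, limma adjusted p = 0.185), both without overlap. The values speak only of these genes' transcripts and not of the activity of their products.

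**Figure D4:**
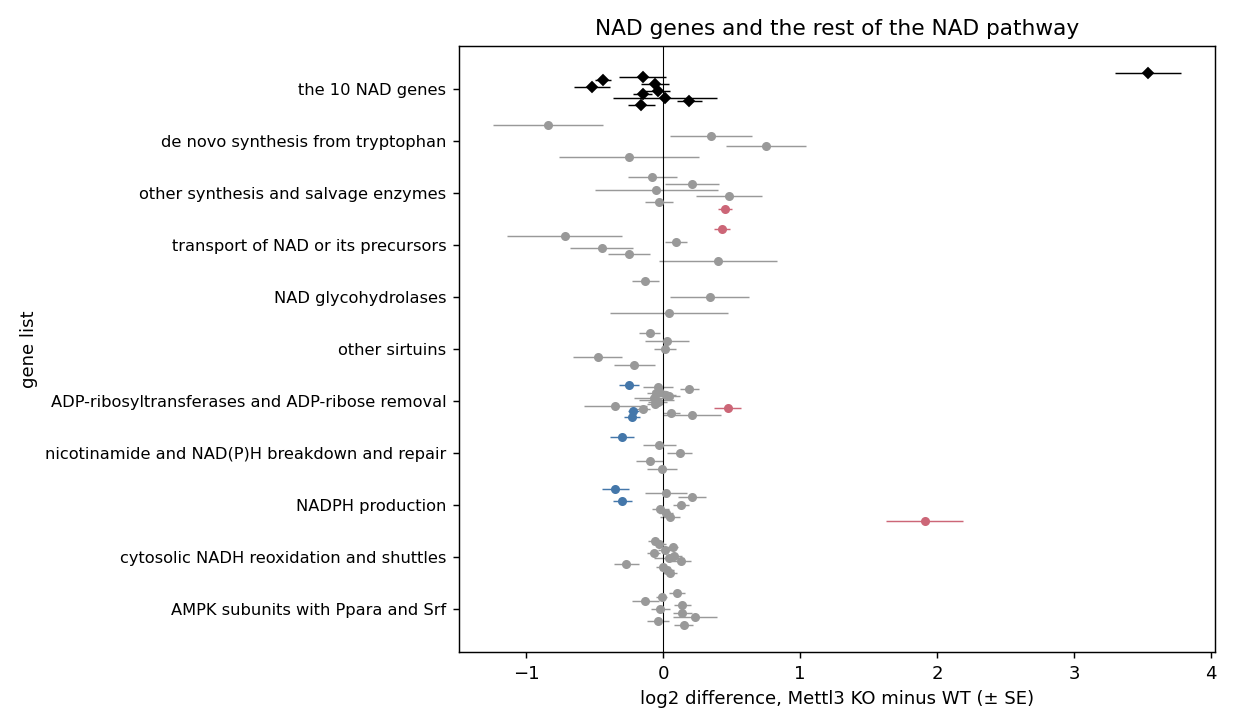
Log2 difference between Mettl3 KO and WT (x axis, ± SE) of the 10 NAD genes (black diamonds) and of the 77 tested genes of the rest of the pathway by list (y axis). Red points rose and blue points fell at a limma adjusted p under 0.05, and grey points did not pass. Nmrk2 at 3.54 and Mthfd2 at 1.91 stand apart on the right.

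The genes next to Nmrk2 did not share its difference. Within 100 kb, 16 genes were listed and 15 tested, of which 1 rose and 1 fell, beside 7.91% of all genes tested that were called. Atcayos, a non-coding RNA on the plus strand (chr10:81030443-81046711), spans the whole of Nmrk2 in antisense and was at 401, 396, 375 and 397 in WT and at 299, 330, 307 and 388 in Mettl3 KO. Mettl3 KO 1, 2 and 3 lay below the WT libraries and Mettl3 KO 4 within them. Its log2 difference was -0.25 (SE 0.07, limma adjusted p = 0.026), opposite in sign to that of Nmrk2. In GENCODE M21 the exons of Atcayos covered 270 of the 1854 exon bases of Nmrk2, or 14.6%, so reads over that stretch were assigned by strand alone. The adjusted p of Atcayos was 0.0718 to 0.116 without WT 1, WT 2, WT 4, Mettl3 KO 1, Mettl3 KO 2 or Mettl3 KO 3, and 0.227 without the mean-variance trend.

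Atcay, the nearest gene on the Nmrk2 strand, was at 0 to 2 in WT and 1 to 4 in Mettl3 KO, at or near the value of 3 reads. Dapk3, a death-associated kinase 4.97 kb away on the other side, was at 59 to 81 in WT and 75 to 102 in Mettl3 KO (log2 difference 0.28, SE 0.12, limma adjusted p = 0.197). Eef2, the translation elongation factor, was at 1237 to 1263 in WT and 1268 to 1464 in Mettl3 KO (log2 difference 0.11, SE 0.04, limma adjusted p = 0.133). Apba3, 64.9 kb away, was at 85 to 106 in WT and 120 to 123 in Mettl3 KO (log2 difference 0.30, SE 0.09, limma adjusted p = 0.0495). This call was lost in 15 of 18 alternatives: its limma adjusted p was 0.0736 to 0.159 on leaving out any library but WT 3, 0.0677 with the replicate block, 0.0641 with limma voom, 0.0608 and 0.0559 under the other scalings and 0.0514 with no filter on low values. The remaining 11 tested neighbours were Creb3l3, Map2k2, Zbtb7a, Pias4, Snord37, Zfr2, Matk, Mrpl54, Pip5k1c, Gm16315 and the Atcay gene itself. They ran from -1.35 for Gm16315, at 1 to 6 in WT and 0 to 1 in Mettl3 KO, to 0.37 for Mrpl54, with limma adjusted p from 0.108 to 0.934. Zbtb7a, at 0.108, had a limma adjusted p of 0.0127 without WT 3, and with the atrial covariate it was at 0.00203 (log2 difference 0.44) and Eef2 at 0.0302 (log2 difference 0.21). The other listed neighbour, Tjp3, was at 0 to 2 and too low to be tested.

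**Figure D5:**
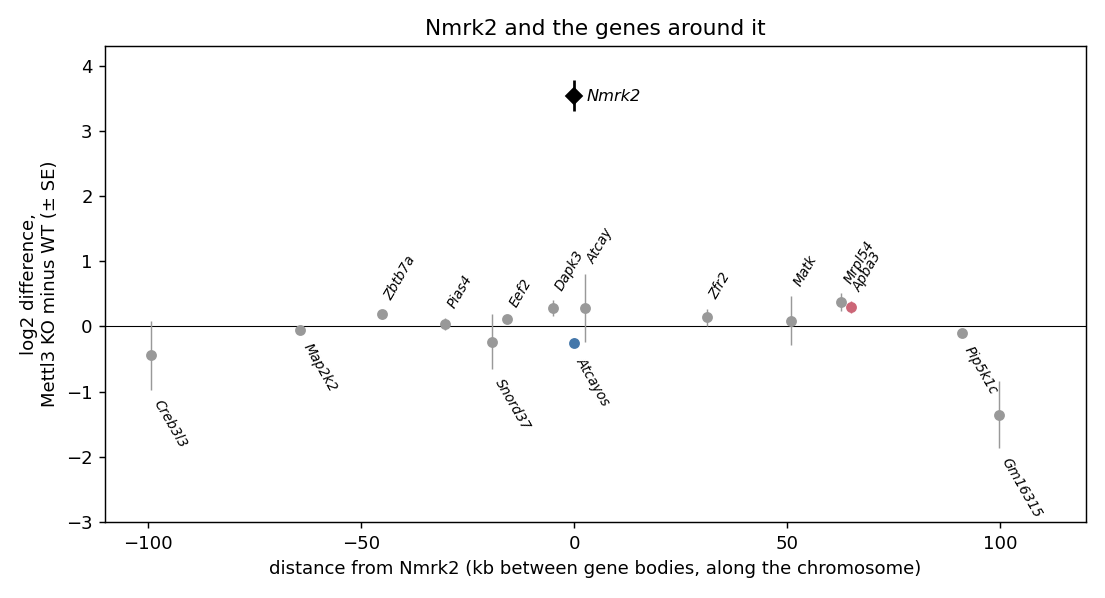
Log2 difference between Mettl3 KO and WT (y axis, ± SE) of Nmrk2 (black diamond) and of the 15 tested genes within 100 kb, against their distance from it in kb (x axis, 0 where gene bodies overlap). Apba3 (red) rose, Atcayos (blue) fell and the grey points did not pass. Nmrk2 lies at 3.54 and its neighbours between -1.35 and 0.37.

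The genes whose pattern over the 8 libraries was most like that of Nmrk2 were sought among 12026 other genes with a mean of at least 20. By Pearson's r on the log2(value + 1) scale these were Plaat3 (0.997), Dpt (0.992), Tefm (0.991), Clic5 (0.985) and Epm2a (0.983). Plaat3, a phospholipase and acyltransferase, was at 443 to 516 in WT and 649 to 670 in Mettl3 KO, and Tefm, the mitochondrial transcription elongation factor, at 82 to 101 and 142 to 149. Dpt, dermatopontin of the extracellular matrix, was at 164 to 185 and 232 to 237. All 5 were higher in Mettl3 KO without overlap, with log2 differences of 0.30 to 0.64, so their likeness is in shape and not in size. The r describes 8 libraries that fall into the genotypes, which alone gives a high r to any gene that separates them. Among the members the r with Nmrk2 was -0.949 for Nampt and -0.833 for Nmnat3 and from -0.715 to 0.515 for the other 6 above that mean.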

How the data were processed

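Heart RNA was sequenced as single-end reads with a strand-specific kit. The authors' pipeline, as their methods describe it, used Trimmomatic 0.39, STAR 2.7.11a against mm39, Picard 3.1.1 to drop duplicates, and featureCounts 2.0.4 over exons by strand; reads that were multi-mapping, ribosomal, mitochondrial or shared by genes were left out. What the authors deposited is a score per gene, whole numbers scaled by DESeq2 1.36.0 and not raw counts, with totals of 2839589 to 2916986. Reads per library were recovered from the steps between low values, which reached 99.98 to 100% of values.

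Genotypes were compared with limma 3.58.1 (R 4.3.3) on log2(value + 1) with a mean-variance trend over genes with a mean of at least 1, with Benjamini-Hochberg adjustment over all of them and a threshold of 0.05; the fit was tested on simulated data. The members, lists and tests were chosen with earlier results of these data known. No label says that the 8 libraries came from separate animals, so p-values measure the spread between libraries, which may be technical. Named were all members, pathway genes that passed and the gene of highest mean value in each list, genes within 100 kb of Nmrk2, and the 5 genes most like it with a mean of at least 20. In lists without a call, genes at an unadjusted p under 0.05 in limma were named as well. Outside these rules, Nmnat2, Nadsyn1, Naprt, Qprt, Kynu, Ppara and genes overlapping members were also named. Mettl3 and Esr1 were named as checks of the labels, and Bmp10 as a marker absent from every WT library. The markers Ryr2, Myl7, Myl4, Sln and Nppa were planned only in counts and sums and were named in addition. Of 94 pathway symbols, members included, 90 were listed and 87 tested. Adipocyte markers summed to 3 to 8 in WT and 5 to 16 in Mettl3 KO, and fast skeletal muscle markers to 25 to 37 and 27 to 37. Alternatives were other filters, pseudocounts, scalings and models, a replicate block, an atrial covariate and leaving out each library. The value of 3 reads covers counting error only.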

Additional observations from a re-analysis of the deposited data

Results flagged for a closer look

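In each genotype, the library farthest from the other 3 was compared with the range of the 4 libraries for 47 genes, giving 94 groups. A gap above the critical value of Dixon's test for 4 samples was found in 9 groups, beside about 4.7 that chance gives at 1 in 20. Among the members it was Nadk, where Mettl3 KO 3 was at 144 and the others at 169 to 174 (gap 0.833 of the range). In the pathway lists it was Tiparp, where Mettl3 KO 3 was at 193 and the others at 171 to 174 (0.864), and Aox1, where WT 3 was at 363 and the others at 283 to 290 (0.912).

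Near Nmrk2 it was Eef2, with WT 2 at 1237 beside 1260 to 1263 (0.885), and Apba3, with WT 4 at 85 beside 103 to 106 (0.857). A further 4 groups were of genes with values of 4 or lower, with a gap of 1 of the range: Creb3l3 at 0 in WT 4 beside 2 in the others and at 0 in Mettl3 KO 1 beside 1, Snord37 at 1 in Mettl3 KO 1 beside 3, and Atcay at 4 in Mettl3 KO 4 beside 1.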

How the results depend on the processing

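The number of genes called was 1607 (958 higher and 649 lower). It was 321 (211 and 110) without the mean-variance trend and 913 (578 and 335) with the atrial covariate, a setting chosen after the data had been seen, of which 601 were among the 1607. Leaving out each library gave 1019 to 1596 genes, 613 to 913 higher and 406 to 683 lower, the lowest total without Mettl3 KO 3. Leaving out WT 1 gave 410 lower and WT 2 gave 414. NAD pathway genes called numbered 1 without the trend, 5 with the atrial covariate and 6 to 9 on leaving out each library, the 6 without WT 1 or WT 2. The log2 difference of Nmrk2 was 3.04 with a pseudocount of 5, and with the atrial covariate that of Nampt was -0.31, of Nmnat3 -0.76, of Sirt1 -0.01 and of Sirt3 0.04; the cause was not tested. Nmrk2 ran from 3.04 to 3.76 and Nampt from -0.49 to -0.31 over all 18 alternatives. Same-numbered libraries of the genotypes correlated at -0.041 to 0.088, and 2 of 4 had their best partner in the same number, so the numbers were not taken to pair libraries; the replicate block gave 1346 genes (810 higher and 536 lower) and 8 NAD pathway genes, without Macrod1 and Aox1. The small number of counted reads limits Nnmt, at 3 to 13 normalised read counts, and the WT level of Nmrk2, at 4 to 13.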
